A study of Mus musculus with 24 samples.

Results

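Myelin and mature oligodendrocyte genes were followed across neural stem cells, stem cell-derived astrocytes and primary astrocytes of the mouse. The 9 genes Mbp, Mog, Mag, Cnp, Cldn11, Mobp, Opalin, Ugt8a and Myrf were chosen by name from the 49671 genes of the count matrix, and all 9 passed the filter on low counts. RNA-seq had been done on 24 libraries in 6 groups of 4, to compare astrocyte models by origin, age and culture. NSC were neural stem cells grown from 1 embryonic stem cell line, GSC-5003, of a C57BL/6N background, used at passages 50 to 60. AGES were astrocytes made from those NSC with 20 ng/ml BMP4 for 3 to 5 days. Neonatal astrocytes (neoAC) came from C57BL/6J mice at postnatal days 4 to 8, and adult astrocytes (AdAC) from C57BL/6J mice of 100 to 140 days. Both were selected with magnetic beads against ACSA-2, an epitope of the astrocyte protein ATP1B2, from the pooled brains of 2 mice of mixed sex, and were either snap-frozen after isolation (direct) or cultured for 7 to 10 days in AstroMACS medium (CellC). The neonatal and adult brains were dissociated with different kits, and debris and red blood cells were removed from the adult preparations only, so age and preparation cannot be told apart. By the methods, adult brains for direct isolation lacked olfactory bulb and cerebellum, and neonatal cells came from cerebral tissue without meninges. Whether adult brains for culture were trimmed alike is not stated, so the tissue region may also differ between groups. Bead selection can leave cells of other types in the preparation, and all NSC and AGES libraries are passages of the same line.

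Oligodendrocytes wrap axons of the central nervous system in myelin, a stack of membrane whose cytoplasmic faces are held together by small basic proteins and whose lipids are rich in galactosylceramide. In the mouse, most of them mature and switch on these genes during the first weeks after birth, and the transcription factor MYRF is needed for that step. Astrocytes do not make myelin, and these genes are commonly used to mark oligodendrocytes in brain preparations. In bulk libraries, fewer cells of a type and less RNA per cell cannot be told apart.

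The promoters of 4 genes are shown because MYRF, itself one of the 9 genes, and SOX10 are known activators of myelin genes. Promoter windows of the 250 bases before an annotated start were held in RefSeq (GRCm38.p6) for 7 of the 9 genes, as 9 windows. Bases that lie inside any annotated transcript of the gene were cut from the sequences printed here. The windows are Cnp on the plus strand at chr11:100574689-100574903, Mag on the minus strand at chr7:30914923-30915172, Mog on the minus strand at chr17:37023399-37023648 and Mobp on the plus strand at chr9:120149492-120149706. They are written 5′ to 3′ on the gene's own strand, and capitals mark the letters CTGGCAC or CTGGTAC (forms of the MYRF motif) or ACAAAG (the SOX motif), or the reverse complement of any of these.
Cnp: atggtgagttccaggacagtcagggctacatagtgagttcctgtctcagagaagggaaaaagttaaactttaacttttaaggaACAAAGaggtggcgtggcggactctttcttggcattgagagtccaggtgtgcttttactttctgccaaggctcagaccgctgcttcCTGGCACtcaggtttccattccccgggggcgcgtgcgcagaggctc
Mag: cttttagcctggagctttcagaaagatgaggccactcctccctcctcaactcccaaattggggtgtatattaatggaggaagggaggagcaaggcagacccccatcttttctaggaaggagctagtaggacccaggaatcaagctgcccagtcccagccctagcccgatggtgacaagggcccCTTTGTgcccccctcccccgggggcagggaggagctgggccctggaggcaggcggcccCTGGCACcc
Mog: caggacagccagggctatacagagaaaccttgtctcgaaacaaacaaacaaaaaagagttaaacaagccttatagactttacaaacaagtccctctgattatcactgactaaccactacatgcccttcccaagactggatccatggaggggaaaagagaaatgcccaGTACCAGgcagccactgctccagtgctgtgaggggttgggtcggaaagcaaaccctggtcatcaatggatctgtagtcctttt
Mobp: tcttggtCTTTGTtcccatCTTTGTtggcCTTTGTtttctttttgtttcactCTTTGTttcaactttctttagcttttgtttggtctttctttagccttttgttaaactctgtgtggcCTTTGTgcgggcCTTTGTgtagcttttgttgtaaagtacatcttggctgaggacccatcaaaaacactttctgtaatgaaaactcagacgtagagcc

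The letters CTGGCAC stood 81 to 75 bases before the RefSeq start of Cnp and 9 to 3 bases before the most upstream start of Mag. On both strands, they were found in 3 of the 9 windows, the same match in both overlapping Mag windows, and in 4.19% of 32851 windows of that length from all genes. CTGGTAC stood in the Mog window on the opposite strand, as it did in 1.83% of all windows. ACAAAG stood in 5 of the 9 windows, of Cnp, Mag (2 of its 3 windows, which overlap and share the match), Mobp and Opalin, and in 16.5% of all windows, with 6 matches in Mobp. Of the other motifs searched on both strands, the GC box GGGCGG was in the windows of Cnp and Ugt8a (32.7% of all windows) and the E-box CAGATG in that of Opalin (14.4%), whereas the E-box CAGCTG (13.001%) and the TATA box TATAAA (12.4%) were in none. GGGCGG matches in Ugt8a overlapped each other, and these are matches of letters only. Mbp and Myrf are named only.

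Total counts ranged from 27904126 to 37997368 per library. Taken as the lowest level told from 0 by counting error alone, 3 counts equalled 0.0786 to 0.117 CPM (counts per 1000000 of the TMM-scaled library size). By the methods, libraries were pooled for sequencing and told apart by an index read. Reads assigned to the wrong library were not estimated. The libraries AdAC CellC #1 and neoAC CellC #2 were the lowest of their groups for most of these genes. The library AdAC CellC #1 was the lowest of its group for all 9 genes, with a median deviation of -0.81 log2 from the group mean, and AdAC CellC #3 was the highest for all 9. AdAC CellC #1 also held 14081 CPM of Gm42418, a locus overlapping ribosomal RNA, against 459 to 3358 CPM in the other libraries. Its summed level of 11 astrocyte markers was 960.5 CPM, against 1169 to 1476 CPM in the other libraries of its group. The library neoAC CellC #2 was the lowest of its group for 7 of the 9 genes, at a median of -0.54 log2. The part of these features in the results was not tested, and values without these libraries are given where they matter.

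**Figure D1:**
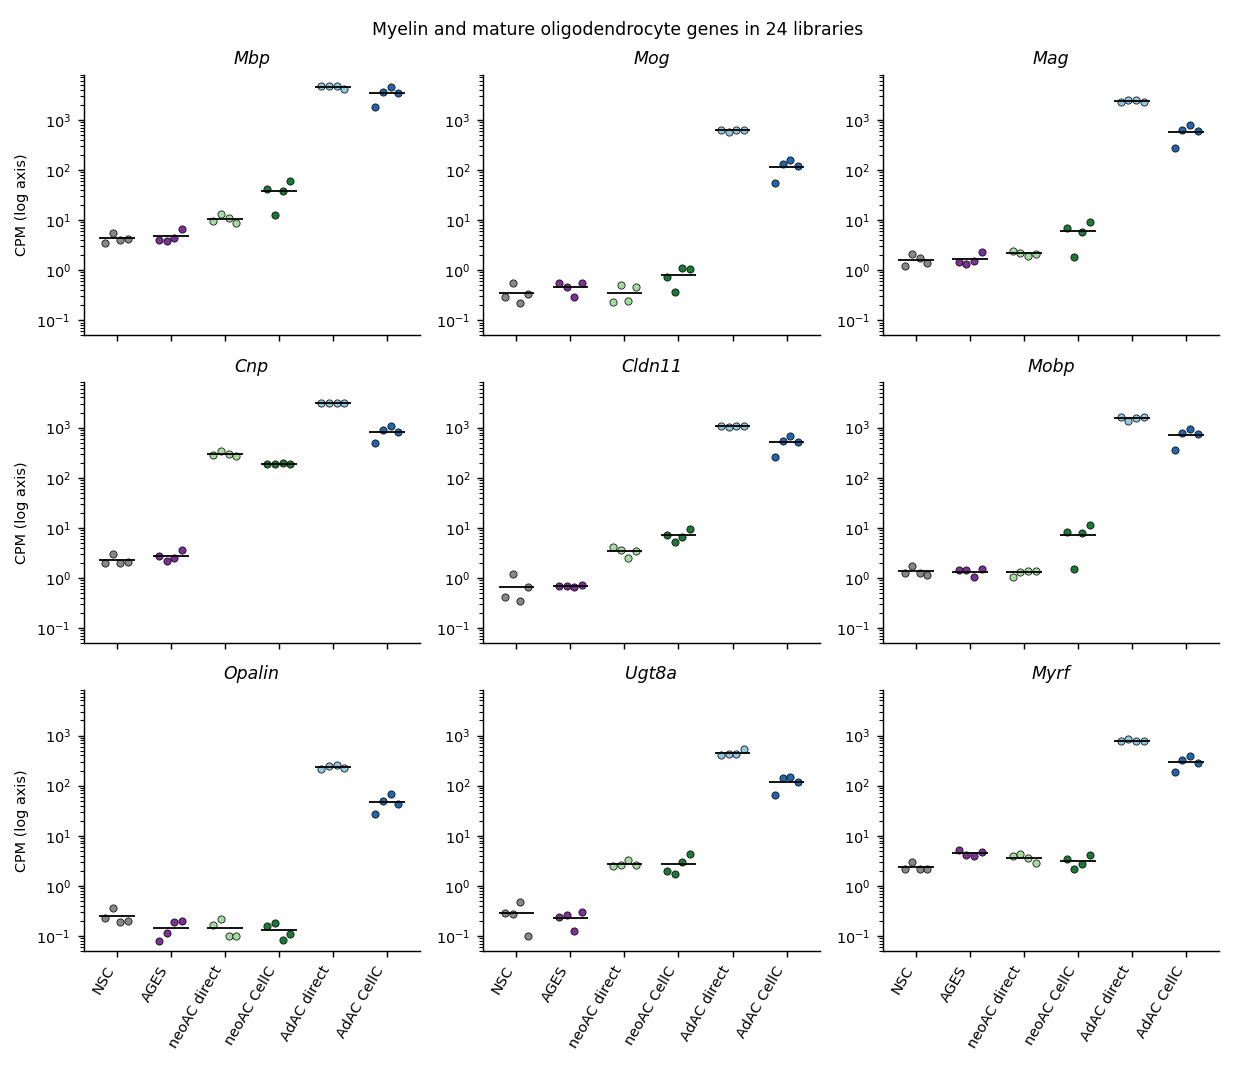
Level of each of the 9 genes in each of the 24 libraries, in CPM on a log axis, by group. Points are libraries and bars are group means. Both adult groups lie far above every other group for 8 genes, and Cnp is also high in both neonatal groups, at 188 to 340.1 CPM.

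Adult astrocytes were compared directly after isolation and after culture, to see how the myelin transcripts of the preparation differed. All 9 genes were abundant in both adult groups, and 8 of the 9 were lower in AdAC CellC than in AdAC direct, against 39.2% of the 19691 genes tested that were lower (edgeR's quasi-likelihood test, Benjamini-Hochberg adjusted p under 0.05). The decreases ran from 2.12-fold for Cldn11 to 5.28-fold for Mog. Mbp did not pass the test. For the 8 others, every cultured library lay below every direct one, as it did for 38.5% of all genes tested. The median log2 fold change over the 9 genes was -1.92, against 0 over all genes tested.

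Myrf (chr19:10208272-10240748, minus strand; build GRCm38 with Gencode vM21 positions for all 9 genes) encodes the membrane-bound factor that activates myelin genes. It was at 770, 841, 793 and 762 CPM in AdAC direct and at 185, 327, 382 and 286 CPM in AdAC CellC. Every cultured library was below every direct one, and the log2 fold change was -1.42 ± 0.16 (SE; edgeR adjusted p = 2.84e-08).

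Of the proteins of compact myelin, MBP (chr18:82475146-82585637, plus strand) binds the cytoplasmic faces of the membrane together. Its gene also makes golli transcripts in other cells, which counts per gene do not separate. Mbp was at 4655, 4694, 4762 and 4105 CPM in AdAC direct and at 1822, 3623, 4581 and 3394 CPM in AdAC CellC. The groups overlapped, since cultured library #3 lay above direct library #4, and the log2 fold change of -0.44 ± 0.30 (SE) did not pass the test (edgeR adjusted p = 0.181). Without AdAC CellC #1 it was -0.22 (edgeR adjusted p = 0.498). Mobp (chr9:120149707-120181484, plus strand), a small basic protein of the same faces, was at 1638, 1344, 1583 and 1665 CPM in AdAC direct and at 356, 796, 921 and 759 CPM in AdAC CellC. These groups did not overlap (Mobp exons share 1.15% of their length with Gm38642), at a log2 fold change of -1.14 ± 0.31 (SE; edgeR adjusted p = 0.00209).

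CNP (chr11:100574904-100591729, plus strand) is a phosphodiesterase that keeps cytoplasmic channels open in myelin, and its gene is switched on in the lineage before compact myelin forms. Cnp was at 3059, 3156, 3149 and 3068 CPM in AdAC direct and at 491, 882, 1090 and 816 CPM in AdAC CellC. The 4 direct libraries lay close together, the cultured ones were spread, and the log2 fold change was -1.92 ± 0.16 (SE; edgeR adjusted p = 4.71e-11). Exons of Cnp share 154 bases, or 4.23% of their length, with Dnajc7 on the other strand.

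MAG and MOG are surface proteins of the inner and the outermost myelin layer. Mag (chr7:30899176-30914873, minus strand) was at 2253, 2523, 2482 and 2291 CPM in AdAC direct and at 276, 637, 801 and 597 CPM in AdAC CellC. Mog (chr17:37010743-37023398, minus strand) was at 627, 568, 629 and 636 CPM in AdAC direct and at 53.8, 133, 159.8 and 119 CPM in AdAC CellC. Both fell without overlap of the groups, Mag by 2.05 ± 0.29 on the log2 scale (SE; edgeR adjusted p = 1.41e-06) and Mog by 2.40 ± 0.22 (SE; edgeR adjusted p = 1.22e-09). Opalin (chr19:41061710-41077113, minus strand), which encodes a membrane glycoprotein of oligodendrocytes, was at 210.1, 242, 256 and 228 CPM in AdAC direct and at 27.1, 48.4, 66.8 and 43.7 CPM in AdAC CellC. It was lower in all 4 cultured libraries than in any direct one, at a log2 fold change of -2.33 ± 0.16 (SE; edgeR adjusted p = 2.89e-12).

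Cldn11 (chr3:31149920-31164324, plus strand) encodes the claudin of the tight junctions within myelin. It was at 1095, 1035, 1062 and 1101 CPM in AdAC direct and at 261, 549, 696 and 520.4 CPM in AdAC CellC, without overlap (log2 fold change -1.08 ± 0.21, SE; edgeR adjusted p = 7.87e-05). Ugt8a (chr3:125865271-125938619, minus strand) encodes the enzyme that makes galactosylceramide. It was at 406, 427, 429 and 543 CPM in AdAC direct and at 63.7, 140.4, 145 and 116 CPM in AdAC CellC. Again no cultured library reached a direct one, at a log2 fold change of -1.95 ± 0.21 (SE; edgeR adjusted p = 2e-08). Without AdAC CellC #1, 8 of the 9 genes were still lower and the median log2 fold change was -1.73.

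Proportions among the 9 genes differed between the adult groups. Within each library, Mbp made up 30.8% ± 1.54 (SD, n = 4) of their summed CPM in AdAC direct and 51.3% ± 0.466 in AdAC CellC, while Mag went from 16.2% to 8.69%, Cnp from 21.04% to 12.7% and Mog from 4.17% to 1.75%. The ratio of Mbp to Mag was 1.91 ± 0.117 (SD, n = 4) in AdAC direct and 5.92 ± 0.453 in AdAC CellC, with ranges of 1.79 to 2.07 and 5.69 to 6.60. The ratio of Cldn11 to Mag was 0.451 in AdAC direct and 0.887 in AdAC CellC. Library AdAC CellC #1, with the lowest levels, had the highest ratio of Mbp to Mag, and all 4 cultured libraries lay above all 4 direct ones for both ratios. These ratios are descriptions of the libraries and do not depend on the scaling between them.

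**Figure D2:**
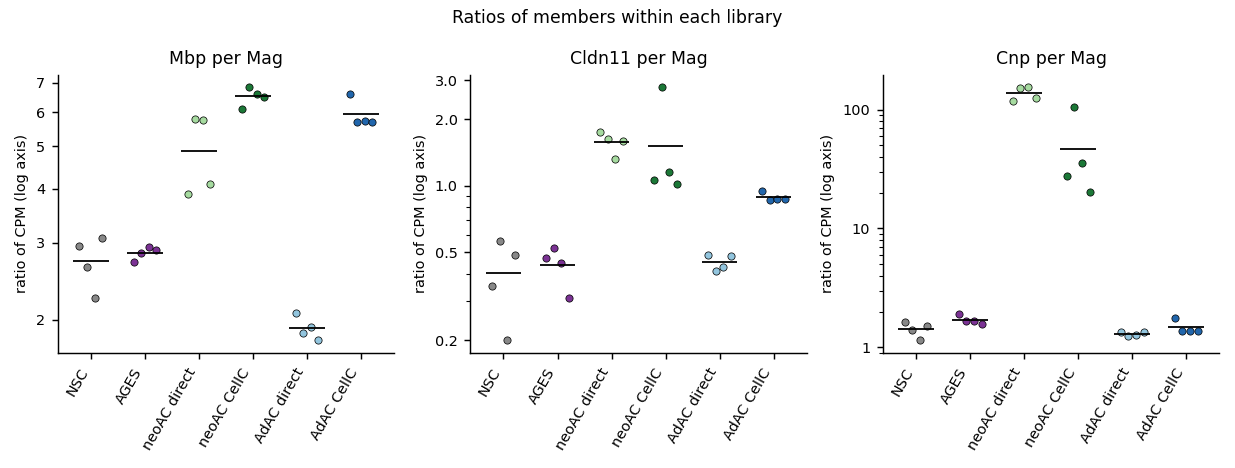
Ratios of CPM within each library for Mbp per Mag, Cldn11 per Mag and Cnp per Mag, on log axes, by group (points are libraries, bars are group means). Mbp per Mag is at 1.79 to 2.07 in AdAC direct and at 5.69 to 6.60 in AdAC CellC.

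Levels were also scaled by the union of all annotated exons of a gene, such as 8469 bases for Mbp and 3639 for Cnp. That union can be longer than the transcripts present, so the order of genes depends on the annotation. Per kilobase of this union, Cnp led in AdAC direct at 854 CPM per kb. It was followed by Mag at 586, Cldn11 at 574 and Mbp at 538, and libraries of neighbours among the last 3 overlapped. Mog at 361 and Mobp at 227 CPM per kb came next, then Ugt8a at 99.5 and Myrf at 92.4, which overlapped, and Opalin at 79.5. In AdAC CellC the order was Mbp at 396 CPM per kb, Cldn11 at 271, Cnp at 225, Mag at 142, Mobp at 103, Mog at 68.3, Myrf at 34.4, Ugt8a at 25.7 and Opalin at 15.8, and every pair of neighbours overlapped. Within each AdAC CellC library, however, Mbp stood first on this scale, at 215, 428, 541 and 401 CPM per kb. Cldn11 was at 139, 293, 372 and 278 CPM per kb in the same libraries.

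Neonatal astrocytes held little of these transcripts other than Cnp. Between neoAC CellC and neoAC direct, 5 of the 9 genes were higher after culture (34.4% of all genes tested were higher) and 1 was lower (31.3% of all genes were lower), by edgeR's test at the same threshold. Mobp was at 8.27, 1.49, 8.01 and 11.2 CPM in neoAC CellC and at 1.04, 1.33, 1.39 and 1.40 CPM in neoAC direct. Library neoAC CellC #2 stood just above the direct range, the other 3 far above it, and the log2 fold change was 2.48 ± 0.42 (SE; edgeR adjusted p = 1.97e-05). Mbp was at 42.1, 12.5, 37.4 and 60.4 CPM in neoAC CellC and at 9.36, 12.96, 10.9 and 8.75 CPM in neoAC direct. Here library #2 lay inside the direct range and the other 3 above it, and the log2 fold change was 1.86 ± 0.32 (SE; edgeR adjusted p = 2.72e-05).

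Mag was at 6.90, 1.83, 5.65 and 9.28 CPM in neoAC CellC and at 1.90 to 2.41 CPM in neoAC direct, and Cldn11 at 7.30, 5.11, 6.54 and 9.48 CPM against 2.51 to 4.23 CPM. Their log2 fold changes were 1.44 ± 0.36 for Mag, with overlap, and 1.04 ± 0.26 for Cldn11, without (SE; edgeR adjusted p = 0.00136 and 0.00108). Mog, at 0.367 to 1.11 CPM in neoAC CellC and 0.228 to 0.498 CPM in neoAC direct, passed at the edge of the threshold (log2 fold change 1.15 ± 0.49, SE; edgeR adjusted p = 0.045) and lost its call when any of 6 libraries was left out. Cnp alone was lower after culture, at 191, 191, 199.5 and 188 CPM in neoAC CellC and at 286, 340.1, 293 and 268 CPM in neoAC direct. The groups did not overlap, and library #2 was not low for this gene (log2 fold change -0.63 ± 0.16, SE; edgeR adjusted p = 0.00103). Ugt8a (1.76 to 4.35 CPM in neoAC CellC and 2.47 to 3.23 in neoAC direct), Myrf (2.12 to 4.18 and 2.89 to 4.24 CPM) and Opalin (0.0832 to 0.183 and 0.0998 to 0.222 CPM) did not pass. Opalin had 3 to 8 counts in each neonatal library. Without neoAC CellC #2, the log2 fold changes of Mobp, Mbp, Mag and Mog were 2.83, 2.15, 1.75 and 1.40.

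Age was compared between the direct groups and between the cultured groups. All 9 genes were lower in neoAC direct than in AdAC direct (36.4% of all genes were lower by edgeR's test), and all 9 were lower in neoAC CellC than in AdAC CellC (35.2% of all genes). In neither comparison did the libraries of the groups overlap for any of the 9 (34.4% of all genes were lower without overlap in each). Cnp differed least, by 10.5-fold between the direct groups (edgeR adjusted p = 3.94e-15) and by 4.26-fold between the cultured groups (edgeR adjusted p = 3.45e-11). In neoAC direct it alone made up 92.4% ± 0.0776 (SD, n = 4) of the summed CPM of the 9 genes, not scaled by length, with a Cnp to Mag ratio of 138, against 1.30 in AdAC direct. The other 8 genes differed between the direct groups by 167-fold for Ugt8a, 215-fold for Myrf, 311-fold for Cldn11, 433-fold for Mbp and more than that for Mag, Mobp, Opalin and Mog, whose log2 fold changes lay between -10.71 and -10.10. Between the cultured groups they differed by log2 fold changes of -8.41 for Opalin to -5.40 for Ugt8a. The median over the 9 genes was -8.76 in the direct and -6.55 in the cultured comparison. The part of reads assigned to the wrong pooled library in the lowest neonatal levels was not tested.

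**Figure D3:**
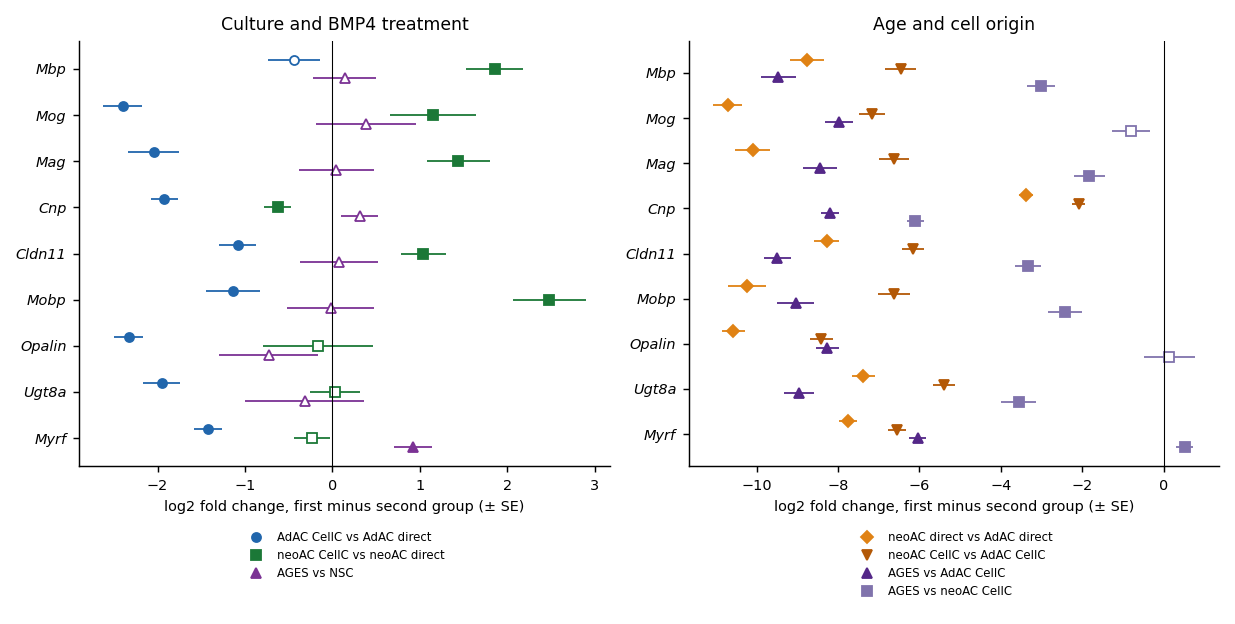
Log2 fold changes of the 9 genes in the 7 comparisons, with bars of 1 standard error from edgeR's fit. Every adult culture value is below 0, from -2.40 (Mog) to -0.44 (Mbp), while 5 of the neonatal ones are above 0 past the test.

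The interaction of culture and age was negative for all 9 genes, against 33.2% of all genes tested, by edgeR's test. In either direction it passed for 13502 of the 19691 genes. The adult minus neonatal difference in log2 fold change on culture was -3.62 for Mobp, -3.55 for Mog, -3.48 for Mag, -2.30 for Mbp, -2.17 for Opalin (edgeR adjusted p = 0.00731), -2.12 for Cldn11, -1.99 for Ugt8a, -1.30 for Cnp and -1.19 for Myrf (edgeR adjusted p = 0.00034). For Mobp, Mog, Mag, Mbp and Cldn11 the neonatal change was positive and the adult one negative, although that of Mbp in adults did not pass. In neoAC direct, Mog, Mobp and Opalin were at 0.357, 1.29 and 0.146 CPM, against 0.349, 1.35 and 0.246 CPM in NSC. A neonatal fall of these genes had little room to show, and the part of this in the interaction was not tested.

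In the stem cell-derived groups, the 9 genes summed to 13.4 ± 2.87 CPM in NSC and 16.6 ± 2.88 CPM in AGES (SD, n = 4), against 258 ± 29.9 in neoAC CellC, 321 ± 33.2 in neoAC direct, 6542 ± 2213 in AdAC CellC and 14772 ± 308 in AdAC direct. Most of the neonatal sums was Cnp, at 75.5% in neoAC CellC and 92.4% in neoAC direct, against 16.8% in NSC and in AGES. Between AGES and NSC, Myrf was higher (31.7% of all genes were higher by edgeR's test) and no gene of the 9 was lower (34% of all genes were). Myrf was at 5.19, 4.12, 4.01 and 4.71 CPM in AGES and at 2.15, 3.01, 2.17 and 2.14 CPM in NSC, without overlap, a 1.89-fold difference (edgeR adjusted p = 0.000573). For the other 8 genes the groups overlapped and adjusted p-values ran from 0.198 to 1 in edgeR's test. Mbp was at 3.55 to 5.53 CPM in NSC and 3.80 to 6.75 CPM in AGES, Cnp at 1.96 to 2.94 and 2.23 to 3.65 CPM, and Mag at 1.21 to 2.10 and 1.33 to 2.34 CPM. Opalin had 2 to 12 counts per library in these groups and was near the lowest level told from 0.

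Expressed as a share of the AdAC direct mean, 8 of the 9 genes were at 0.0509% to 0.105% in both stem cell-derived groups, and Myrf was at 0.299% in NSC and 0.569% in AGES. Of the 2231 genes with at least 100 CPM in AdAC direct, 64 in NSC and 50 in AGES were under 0.1% of that level, and the lowest was at 0.0366% and 0.0209%. The sum in NSC held 32.2% Mbp, 17.7% Myrf, 16.8% Cnp and 11.96% Mag. It held 30.8% Mbp, 5.36% Myrf, 21.04% Cnp and 16.2% Mag in AdAC direct and 92.4% Cnp in neoAC direct. The part of reads assigned to the wrong pooled library in the NSC and AGES levels was not tested. NSC #2 was the highest of its group for 8 of the 9 genes and AGES #4 of its group for 8.

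AGES and cultured primary astrocytes were compared as alternative models. Against AdAC CellC, all 9 genes were lower in AGES (45.2% of all genes were lower by edgeR's test), with log2 fold changes from -9.49 for Cldn11 to -6.04 for Myrf. Against neoAC CellC, 6 genes were lower (40.5% of all genes) and Myrf was higher (34.1% of all genes). Cnp differed most, at a log2 fold change of -6.10 ± 0.20 (SE; edgeR adjusted p = 3.91e-19), followed by Ugt8a at -3.56, Cldn11 at -3.34, Mbp at -3.003, Mobp at -2.42 and Mag at -1.82. Myrf, at 4.01 to 5.19 CPM in AGES and 2.12 to 4.18 CPM in neoAC CellC, overlapped (log2 fold change 0.52 ± 0.21, SE; edgeR adjusted p = 0.0266) and lost its call with 3 of the other scalings or filters. Both comparisons share the AGES libraries.

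Libraries of a group that were high for 1 of the genes tended to be high for many of the others, but not for every pair. With group means removed, the median Pearson correlation over the 36 pairs of genes was 0.62 across 24 libraries, with a range of 0.003 to 0.954. Across the 22 without AdAC CellC #1 and neoAC CellC #2 it was 0.53, with a range of -0.20 to 0.82. Across all 24, Opalin was at 0.003 with Mobp and 0.045 with Ugt8a. The points share a library and its scaling, so these are descriptions.

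**Figure D4:**
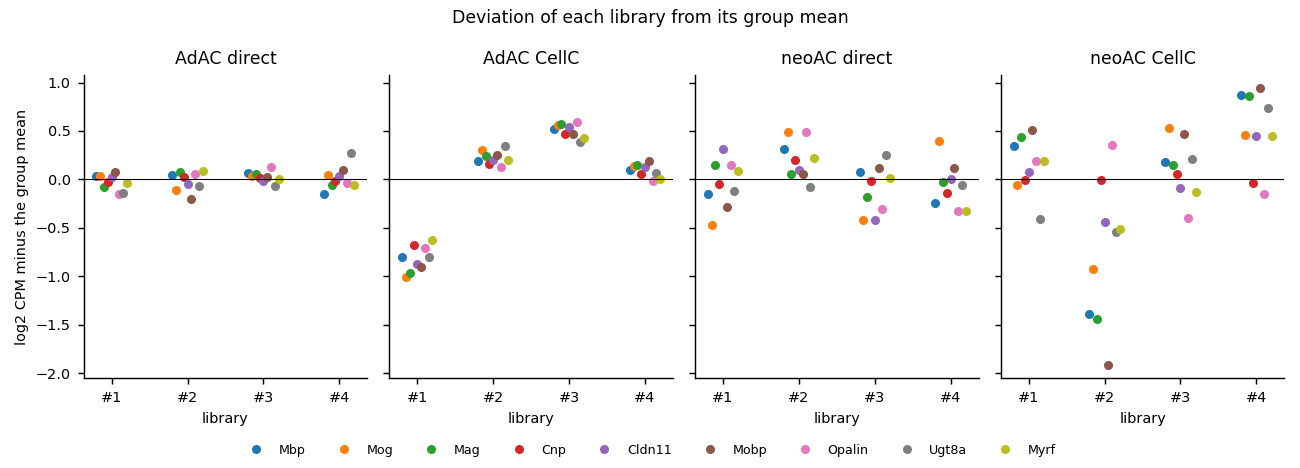
Deviation of each primary astrocyte library (AdAC and neoAC) from its group mean, in log2 CPM, for each of the 9 genes. AdAC CellC #1 lies below its group for all 9 genes, at a median of -0.81, and neoAC CellC #2 for 8.

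Other genes of mature oligodendrocytes were mostly lower after culture in adults. In AdAC CellC against AdAC direct 39.2% of all genes tested were lower and 38.8% higher, and in neoAC CellC against neoAC direct 31.3% were lower and 34.4% higher, and the counts of the lists that follow stand beside these shares. Of 24 further myelin genes, 23 were lower and none higher in AdAC CellC than in AdAC direct, with a median log2 fold change of -2.32. Mal, a proteolipid of myelin membranes, had a log2 fold change of -2.62. In neoAC CellC against neoAC direct, 7 of the 24 were higher and 6 lower, with a median of -0.02, so neither count was above the share over all genes. Cryab, a small heat shock protein, rose most (3.78), and Mal rose by 1.33, while Car2, a carbonic anhydrase, fell by 3.21 on the log2 scale. All 24 were lower in neoAC direct than in AdAC direct (median -7.32, against 36.4% of all genes), and 23 had lower levels in AGES than in cultured adult astrocytes (45.2% of all genes). Between AGES and NSC 5 of the 24 were higher and 5 lower, under the 31.7% and 34% of all genes, and Cryab went from 10.5 CPM in NSC to 1365 CPM in AGES.

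Of 8 genes of myelin lipid synthesis, Ugt8a among them, 6 were lower in AdAC CellC than in AdAC direct, among them Fa2h, the fatty acid 2-hydroxylase (-2.43), Aspa (-3.41) and Gal3st1, the sulfatide sulfotransferase (-1.34). In neonates 3 were higher, led by Elovl7 (2.40), and 2 were lower, Aspa at -1.96 among them. Of 11 oligodendrocyte transcription factors, Myrf among them, 10 were lower in AdAC CellC, and Sox10 went from 400 to 157 CPM. In neonates 2 were higher, Sox10 at 1.53 and Zfp488 at 3.95, and 6 were lower, Olig1 at -0.86 and Olig2 at -0.87 among them. Of 8 inhibitors of oligodendrocyte maturation, 7 were lower in AdAC CellC, such as Hes5 (-6.10) and Id4 (-2.48), and in neonates 2 were higher and 3 lower. Of 6 genes of axon-myelin adhesion, Mag among them, 5 were lower in AdAC CellC, and in neonates 2 were higher and 2 lower, Nfasc going up by 1.91. These are log2 fold changes from edgeR's fit.

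Of 7 committed oligodendrocyte markers tested, 5 were lower and 1 was higher in AdAC CellC than in AdAC direct, and in neonates 4 were higher and 1 lower. Bcas1, a marker of newly formed oligodendrocytes, was at 201 CPM in AdAC CellC and 195 CPM in AdAC direct and did not pass (edgeR adjusted p = 0.864), while Rras2 was higher in AdAC CellC (3.82 log2). Of 11 precursor markers, 6 were lower and 2 higher in AdAC CellC, and 6 were lower and 4 higher in neoAC CellC. Their summed level was highest in neoAC direct, at 12494 CPM, where the 9 members summed to 321 CPM, and was 3432 CPM in NSC and 710 CPM in AGES. Against AdAC direct, 7 of the 11 were higher and 2 lower in neoAC direct (6889 and 7177 of 19691 genes tested). The list of transcription factors, with Olig1, Olig2 and Sox10 in it, summed to 1239 CPM in neoAC direct. Most of the precursor sum there thus came from other markers. Olig1 and Olig2, lineage factors that neural progenitors also express, went from 1334 to 239 CPM and from 624 to 44.6 CPM from NSC to AGES, a comparison in which the 8 genes other than Myrf did not pass. Of 5 Schwann cell markers tested, 2 were higher and none lower in AdAC CellC.

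**Figure D5:**
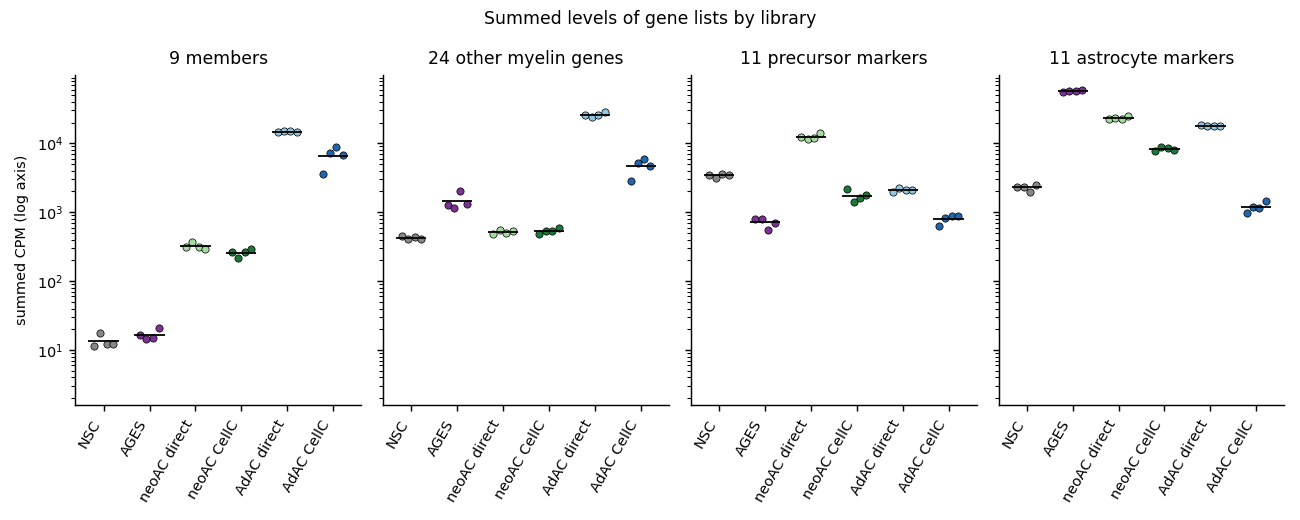
Summed CPM of the 9 genes and of lists of marker genes in each library, on a log axis, by group. Astrocyte markers sum to 1202 CPM in AdAC CellC and 18091 CPM in AdAC direct, and precursor markers are highest in neoAC direct at 12494 CPM.

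Markers of the labelled cell type moved beside these results. The summed level of 11 astrocyte markers was 18091 CPM in AdAC direct and 1202 CPM in AdAC CellC, where 10 of 11 were lower, Atp1b2, the gene of the sorted epitope, going from 2235 to 123 CPM. It was 23486 CPM in neoAC direct, 8247 in neoAC CellC (9 of 11 lower and Gfap higher), 57248 in AGES and 2290 in NSC. Gfap alone made up 50503 of the CPM in AGES. Between AGES and neoAC CellC, 3 of the 11 were higher and 5 lower, at a median log2 fold change of -0.27, and Aqp4 was lower in AGES, at 245 against 952 CPM. Mural and fibroblast markers summed to 1408 CPM in AdAC CellC and 458 in AdAC direct, with 4 of 8 higher, Col1a1 among them, and 4 lower. Neuron markers summed to 224 and 56.3 CPM in these groups (5 of 9 higher and 3 lower), and neural stem cell markers to 6100 and 687 CPM (5 of 7 higher). Ependymal markers went the other way, from 1302 CPM in AdAC direct to 272 in AdAC CellC (5 of 5 lower). In neonates they rose from 174 to 1617 CPM on culture (5 of 5 higher). Microglia markers summed to 48.1 to 90.8 CPM and endothelial markers to 1.98 to 180 CPM over the 6 groups. The part of these shifts in the values of the 9 genes was not tested.

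The genes most like the 9 across the 24 libraries were found by the Pearson correlation of their log2 CPM with the mean of the 9 genes, each scaled to unit variance. Among 12569 candidates with at least 10 CPM in some group, the 10 most alike included Ppp1r16b (0.993), Cdk18, St18, Gpr62, Gjb1, Tmem151a, Nfe2l3, Fa2h and Ermn (0.987), and 63 were over 0.95. Among the members, the correlation ran from 0.843 for Cnp to 0.994 for Cldn11. The libraries fall into groups with the adult ones far apart, so the correlation rests largely on that separation. Ppp1r16b was at 471 CPM in AdAC direct, 124 in AdAC CellC and 0.546 to 3.72 in the other 4 groups.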

How the data were processed

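Read counts per gene for 24 mouse libraries were deposited as whole numbers with no normalization. According to the methods, the authors prepared stranded mRNA libraries, aligned paired reads with STAR 2.7.3a to GRCm38 keeping multi-mapping reads, and counted exons of Gencode vM12 with featureCounts 2.0.1. The strand and pair settings of counting were not given in the sources used here, so reads of overlapping genes could be split. Gene symbols and coordinates were taken from Gencode vM21, which held 49412 of the 49671 identifiers (99.48%).

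Genes were kept by edgeR's filter on low counts (19691 tested), scaled by TMM and fitted over all 6 groups with edgeR 4.0.16 (quasi-likelihood, limma 3.58.1, R 4.3.3), with p-values Benjamini-Hochberg adjusted over all genes tested and a threshold of 0.05. CPM values are counts per 1000000 of the TMM-scaled library size. Tables and plots used Python 3.11.15, pandas 2.3.3 and numpy 2.4.6. All comparisons are first minus second group, and the interaction is the adult minus the neonatal culture effect. The floor of 3 counts covers counting error only. Replicates were separate isolations or passages. The labels do not say whether replicate numbers pair the samples, which were fitted as unpaired. Correlations of same-numbered deviations ran from -0.0953 to 0.106 over all comparisons, which cannot show that pairing is absent. The fit was tested on simulated data for AdAC CellC against AdAC direct, where 200 of 200 changed genes were recovered with 11 false calls among 18747 genes. Only those 200 were changed, by large fixed amounts and equally up and down, and no library was shifted as a whole. In the data, 39.2% of genes were lower and 38.8% higher, so the simulation checks the code and not the error rate here.

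The members, lists and tests were chosen with earlier results of these data known. Named genes were the 9 members, up to 6 per list by highest mean CPM plus those that went against most of the list, and the 10 genes most like the members. Some genes that the rule takes in are not reported here. Gm42418 was named after its values were seen. Alternatives were another scaling (DESeq2 1.42.0 size factors, library size only), other filters, DESeq2's Wald test, fits of the compared groups only, a replicate block and leaving out each library. One that left out both AdAC CellC #1 and neoAC CellC #2 was chosen after seeing the data. Promoter sequences are from RefSeq, GRCm38.p6.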

Additional observations from a re-analysis of the deposited data

Results flagged for a closer look

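Single libraries stood apart from the other 3 of their group in 8 of 60 sets of 4 values, by the gap to the nearest library as a part of the group's range, and chance gives about 1 in 20. In AdAC direct these were Mbp in library #4 at 4105 CPM (low), Mog in #2 at 568 CPM (low) and Ugt8a in #4 at 543 CPM (high). In NSC, library #2 was high for Cnp at 2.94 CPM, for Myrf at 3.01 CPM and for the sum of the 9 genes at 17.7 CPM. Mobp in AGES #3 was low at 1.03 CPM, and Ugt8a in neoAC direct #3 was high at 3.23 CPM. This rule flagged neither AdAC CellC #1 nor neoAC CellC #2, which were picked out for being lowest across genes.

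The change on culture differed between adult and neonatal astrocytes for each of the 9 genes by the interaction in edgeR's fit. It also differed, in either direction, for 13502 of the 19691 genes tested. All 9 differences were negative, against 33.2% of all genes. The adult minus neonatal difference in log2 fold change was -3.62 for Mobp, -3.55 for Mog, -3.48 for Mag, -2.30 for Mbp, -2.17 for Opalin, -2.12 for Cldn11, -1.99 for Ugt8a, -1.30 for Cnp and -1.19 for Myrf. Dissociation kits differed between the ages, so age and preparation cannot be told apart. In neoAC direct, Mog, Mobp and Opalin were near their NSC levels, so a neonatal fall had little room to show. Mobp and Mog rose on neonatal culture, by 2.48 and 1.15 on the log2 scale, and Opalin did not pass. The part of either in the interaction was not tested.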

How the results depend on the processing

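No called result changed direction under the alternatives run. The number of the 9 genes called was the same in all 7 comparisons and the interaction with a replicate block, with 8 in AdAC CellC against AdAC direct, and no call of a member changed. With at least 10 counts in every library, 6 of the 9 genes were tested, and 5 were called in that comparison at a median of -1.31. The median over the 9 genes in neoAC direct against AdAC direct was -8.76, -8.83 with library size only, -8.55 with at least 10 counts in every library and -8.88 to -8.68 without single libraries. The sum of the 9 genes was 15159.9 CPM in AdAC direct with DESeq2 size factors, against 14772, and 289 CPM in neoAC CellC with library size only, against 258. With library size only, the median log2 fold change over all genes was 0.27 in neoAC CellC against neoAC direct (8628 genes higher and 4468 lower, against 6766 and 6170), -0.37 in AGES against neoAC CellC (4504 and 9822, against 6710 and 7977) and -0.45 in AGES against AdAC CellC (4817 and 10277, against 6105 and 8897). Mog in neoAC CellC against neoAC direct lost its call with no filter (edgeR adjusted p = 0.124) and without any of 6 single libraries (0.0549 to 0.121). Myrf in AGES against neoAC CellC lost its call with DESeq2 size factors (edgeR adjusted p = 0.051), library size only (0.344), the stricter filter (0.169), only the compared groups (0.0536) and without any of 4 single libraries (0.0535 to 0.11). Mog in that comparison gained a call with library size only, with DESeq2's Wald test and without neoAC CellC #2. Low counts limit Opalin, Mog and Ugt8a outside the adult groups.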
